A study of Mus musculus with 8 samples.

Results

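The gene for the transcription factor p53 (Trp53) and 9 genes known as regulators or direct targets of it (Mdm2, Mdm4, Cdkn1a, Ccng1, Phlda3, Aen, Zmat3, Trp53inp1 and Eda2r) were followed by name in an RNA-seq count table of mouse pre-B cells. They make up 10 of the 32499 genes of the table and were taken by symbol. Of the 10, 9 had enough counts to be tested, and Phlda3 did not. The study put full-length ZNF384, a zinc finger transcription factor, and 2 of its leukaemia fusion proteins into these cells and compared them by RNA sequencing. There were 4 groups of 2 libraries: cells with HA-tagged full-length ZNF384, cells with TAF15-ZNF384-HA, cells with TCF3-ZNF384-HA, and cells with the empty vector. All 4 groups came from C57BL/6 bone marrow without Arf, were sorted for GFP after lentiviral transduction, and were sequenced from total RNA with a kit that keeps the strand. The labels call the 2 libraries of a group biological replicates. They give no separate animals or clones, so p-values measure the spread between these cultures. The deletion of Arf is shared by the empty vector cells, so no library here shows the genes in cells with Arf.

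The p53 protein binds DNA as a tetramer and switches on genes that halt the cell cycle or start cell death. Mdm2 tags p53 for destruction and is itself a p53 target, and its relative Mdm4 binds and silences p53. The Arf protein, encoded by Cdkn2a together with p16INK4a, normally holds Mdm2 away from p53, a brake on Mdm2 that these cells do not have. In pre-B cells the breaks made during rearrangement of the immunoglobulin genes are a known trigger of p53.

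Of the sequences near these genes, those that resemble the p53 consensus response element are shown because they are where p53 would be looked for first. The element consists of 2 adjoining decamers, 20 bases in all, and reads the same on both strands, so a search of 1 strand covers the other. No other motif was searched. Windows of 2500 bases to each side of every annotated transcript start were searched in the mm9 genome for matches with no spacer, at most 2 mismatches and the C and G of both decamer cores intact. This search rule was set after some of the sequences had been read. Of the 10 genes, 4 held a match (Cdkn1a, Ccng1, Zmat3 and Eda2r), against 8.51% of the 20271 genes searched. With at most 1 mismatch the 10 genes counted 3, against 1.32% of genes searched. With no mismatch they counted 1, Zmat3, against 0.138%. The genes were picked as known regulators or direct targets of p53, so a higher share follows from that choice and these contrasts are not a test. A match describes the letters of the window and is not a binding site. The other genes held no match under this rule. An element with a spacer, a changed core base or more than 2 mismatches would be missed, so they may still have one in this window.

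In the RefSeq promoter table (build GRCm38.p6), 8 of the 10 genes had an entry, with 11 promoters between them, and Zmat3 and Trp53inp1 had none. Because the genes were picked as known p53 genes, the contrast given next is not a test either. Among the 250 bases before each start, 2 of those 11 promoters held a match with at most 1 mismatch. They were a promoter of Cdkn1a and that of Ccng1, and the share of all 32851 promoters was 0.0578%. Both are printed from the RefSeq table, 5′ to 3′ on the strand of the gene, with the match in capitals and without bases inside the annotated gene. Their positions in mm9 come from an exact match of the sequence to that genome. The Cdkn1a promoter lies at chr17:29227674-29227923 on the plus strand. The match at chr17:29227873-29227892 has 1 mismatch and is centred 42 bases before the nearest start. The other Cdkn1a promoter with an entry, at chr17:29230464-29230713 and inside the annotated gene, held 0 matches.
Cdkn1a promoter: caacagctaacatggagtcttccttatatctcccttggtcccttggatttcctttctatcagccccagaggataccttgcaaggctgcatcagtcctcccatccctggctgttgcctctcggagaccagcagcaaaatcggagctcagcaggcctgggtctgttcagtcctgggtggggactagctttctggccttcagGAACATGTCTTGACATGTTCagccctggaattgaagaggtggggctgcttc
The Ccng1 promoter, 225 bases outside the gene, lies at chr11:40568814-40569038 on the minus strand. Its match at chr11:40568964-40568983 has 1 mismatch and is centred 160 bases before the start.
Ccng1 promoter: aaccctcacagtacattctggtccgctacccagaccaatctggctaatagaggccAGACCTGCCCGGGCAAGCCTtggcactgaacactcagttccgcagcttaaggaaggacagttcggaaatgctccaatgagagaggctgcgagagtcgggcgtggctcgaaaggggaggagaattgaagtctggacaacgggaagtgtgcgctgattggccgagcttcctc
The other 3 matches lie in introns and are shown in mm9 with the bases at each side, on the minus strand, which is the strand of these genes. The one in Ccng1 (chr11:40568438-40568457) has 1 mismatch and is centred 366 bases after the nearest start. The one in Zmat3 (chr3:32263253-32263272) matches at every base and is centred 1120 bases after the nearest start. The one in Eda2r (chrX:94571873-94571892) has 2 mismatches and is centred 606 bases after the nearest start.
Ccng1 intron: ccggaACGCAAGCCCGGGCTAGTCTgcgcc
Zmat3 intron: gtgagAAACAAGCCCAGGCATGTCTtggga
Eda2r intron: tgcctGGGCAAGTCCGGGCCTGTGTaaaaa

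**Figure D1:**
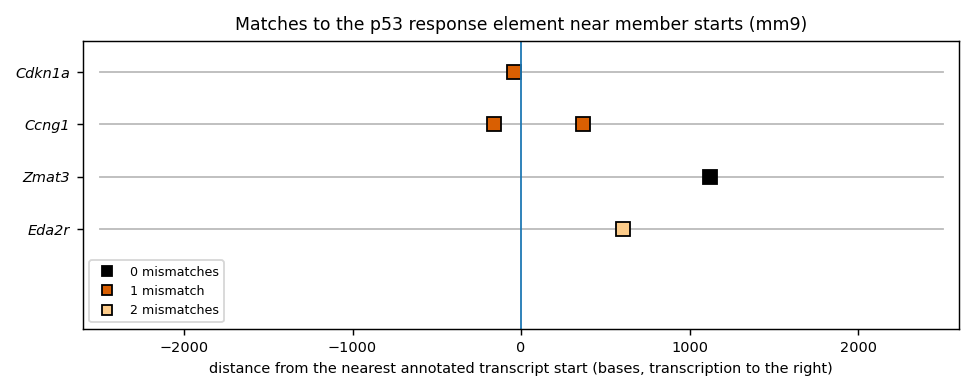
Position of each match to the p53 response element, in bases from the nearest annotated transcript start (x axis), for the 4 genes that held one (y axis). Points before 0 lie upstream of the start: 1 match in Cdkn1a and 1 in Ccng1 lie upstream, and the other 3 lie downstream.

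The 8 libraries held 9381954 to 41483660 counts, and 12970 genes were tested. A set of 5 highly counted non-coding genes took 10.9% and 12.5% of the counts in the ZNF384 libraries, 28.1% and 29.6% in the TAF15-ZNF384 libraries, 18.5% and 24.5% in the TCF3-ZNF384 libraries, and 27.2% and 33.2% in the empty vector libraries. Values below are CPM, counts scaled to library size, after edgeR's trimmed-mean scaling. Scaling by total counts without those 5 genes raised the median log2 fold change of all genes to between 0.12 and 0.18 in each comparison of a fusion with full-length ZNF384 or the empty vector. In the count table the other 6 libraries carry a suffix in their names that is missing from the 2 with the empty vector, and a separate preparation, if there was one, cannot be told apart from the group. The pre-B marker genes summed to 4591 to 5301 CPM in every library, and this sum hides shifts within the list. With TCF3-ZNF384 over the empty vector, 5 of the 13 rose and 3 fell (61.5%, where 33.3% of all genes tested passed). Vpreb2 had 73.5 and 77.1 CPM with TCF3-ZNF384, against 282 and 266 CPM with the empty vector. Blnk had 117 and 124 CPM with TCF3-ZNF384, against 40.4 and 43.3 CPM with the empty vector. Rag1 and Rag2, 2 of those 13 markers, were at 0.0874 to 0.218 CPM in the ZNF384 libraries and at 0.0403 to 0.547 CPM in the empty vector libraries. Rag1 stood at 6.63 and 9.31 CPM in the TAF15-ZNF384 libraries and at 67.6 and 55.1 CPM in the TCF3-ZNF384 libraries, and the part of such a shift within the pre-B markers in the results below was not tested. Myeloid, T cell, erythroid and stromal marker lists each summed to at most 3.91 CPM in any library.

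Per kilobase of exon, Ccng1 and Mdm4 had the highest levels of the members, and Phlda3 and Eda2r the lowest. In the empty vector cells the levels were 148 CPM per kb for Ccng1, 93.8 for Mdm4, 29.4 for Trp53inp1, 16.2 for Cdkn1a, 8.27 for Mdm2, 7.15 for Trp53, 6.48 for Aen, 0.903 for Zmat3, 0.243 for Phlda3 and 0.155 for Eda2r. In that order the libraries of Trp53 and Aen overlapped, and those of the other neighbours did not. Ccng1 was also first in the TAF15-ZNF384 cells (169 CPM per kb) and the TCF3-ZNF384 cells (139 CPM per kb). In the ZNF384 cells Mdm4 averaged 108 CPM per kb and Ccng1 100.5 CPM per kb, and their libraries overlapped.

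More members passed where a fusion was set against full-length ZNF384 than where a construct was set against the empty vector. Of the 9 members tested, 6 rose in TAF15-ZNF384 cells relative to ZNF384 cells (66.7%, where 33.3% of all genes tested passed, 15.4% higher and 17.9% lower), with a median log2 fold change of 0.50 against −0.02 over all genes. In TCF3-ZNF384 cells relative to ZNF384 cells 5 of 9 rose (55.6%, where 45.6% of all genes passed, 22.2% higher and 23.4% lower), with a median of 0.47 against 0.00 over all genes. Against the empty vector, 2 of 9 fell in ZNF384 cells (22.2%, where 20.6% of all genes passed, 10.8% higher and 9.87% lower), and the median was −0.18 against 0.03 over all genes. In TAF15-ZNF384 cells 1 of 9 rose (11.1%, where 11.0% of all genes passed, 5.01% higher and 6.01% lower), with a median of 0.22 against 0.01. In TCF3-ZNF384 cells 3 rose and 1 fell (44.4% of 9, where 33.3% of all genes passed, 16.2% higher and 17.0% lower), with a median of 0.18 against 0.01. Between TCF3-ZNF384 and TAF15-ZNF384 cells 2 of 9 fell (22.2%, where 10.1% of all genes passed, 5.91% higher and 4.17% lower). The member counts against the empty vector for ZNF384 and TAF15-ZNF384 cells were thus near the share of all genes. With 9 members tested, 1 member is 11.1%. The gap to the share of all genes was about that size for TCF3-ZNF384 over the empty vector, ZNF384 and TAF15-ZNF384. For each fusion the share of all genes was also higher against ZNF384 than against the empty vector. The comparisons share groups, so a low value in ZNF384 cells enters 3 of the 6. Leaving out single libraries moved some of these counts by over 1.5 times. The 6 members of TAF15-ZNF384 over ZNF384 became 3 without TAF15-ZNF384 replicate 1. The 4 of TCF3-ZNF384 over the empty vector became 0 without TCF3-ZNF384 replicate 1 or empty vector replicate 1, 1 without TCF3-ZNF384 replicate 2, and 2 without empty vector replicate 2. The 1 of TAF15-ZNF384 over the empty vector became 5 without either ZNF384 replicate and 0 without TAF15-ZNF384 replicate 1 or either replicate of TCF3-ZNF384 or the empty vector. The 2 of TCF3-ZNF384 over TAF15-ZNF384 became 0 without replicate 1 of either fusion, and 1 without replicate 2 of either fusion or either empty vector replicate.

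**Figure D2:**
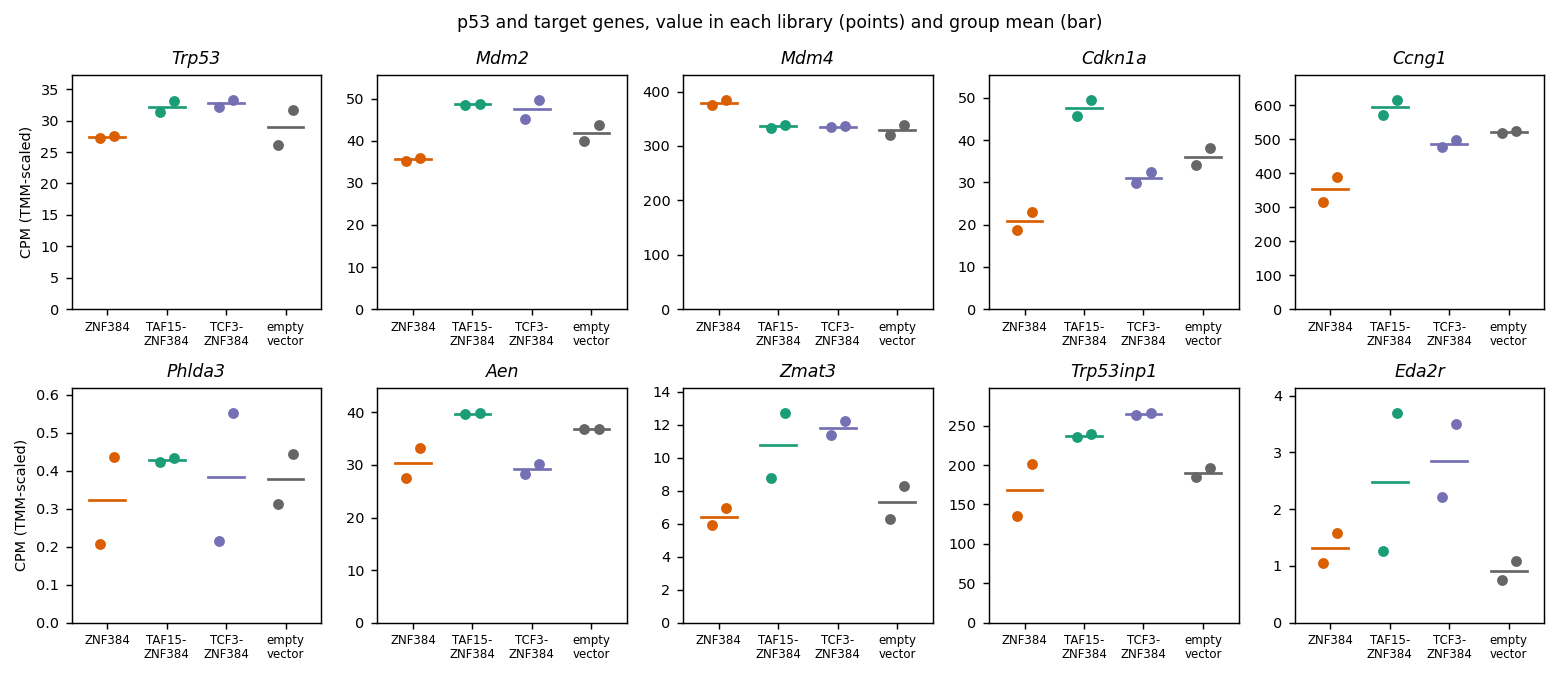
Each panel shows 1 gene, with CPM on a linear y axis from 0 and the 4 groups on the x axis; points are the 2 libraries of a group and bars their mean. Cdkn1a, Ccng1 and Mdm2 are lowest in the 2 ZNF384 libraries, and Phlda3 is under 1 CPM everywhere.

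Trp53 RNA itself lay between 26.1 and 33.3 CPM in all 8 libraries. Trp53 (chr11:69393861-69405375, plus strand, mm9, protein coding) stood at 27.3 and 27.6 CPM in the ZNF384 libraries, 33.1 and 31.3 CPM in the TAF15-ZNF384 libraries, 33.3 and 32.1 CPM in the TCF3-ZNF384 libraries, and 31.7 and 26.1 CPM in the empty vector libraries. The 2 ZNF384 libraries lay below all 4 fusion libraries and between the 2 empty vector libraries, which differed more than the libraries of any other group. Against the empty vector its log2 fold changes were −0.08 (95% interval −0.31 to 0.16) in ZNF384 cells, 0.15 (−0.10 to 0.41) in TAF15-ZNF384 cells and 0.18 (−0.07 to 0.42) in TCF3-ZNF384 cells, and these did not pass edgeR's quasi-likelihood test (adjusted p = 0.674, 0.432 and 0.250). Against ZNF384 cells they were 0.25 ± 0.11 in TCF3-ZNF384 cells (SE, adjusted p = 0.0831) and 0.23 ± 0.12 in TAF15-ZNF384 cells (adjusted p = 0.144). Scaling by total counts moved 3 of these past the threshold, at 0.42 (TCF3-ZNF384 over ZNF384), 0.37 (TAF15-ZNF384 over ZNF384) and 0.32 (TCF3-ZNF384 over the empty vector). The strand setting of the counts is not known, so reads of Wrap53, which runs antisense to Trp53, may be among them, and so may reads of the Trp53 pseudogene listed in the table. The annotation used here for positions (GENCODE vM1) lists no gene that overlaps Trp53, and the annotation behind the counts is not given. In bulk RNA, fewer cells with a transcript and less of it in each cell cannot be told apart, here and below.

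Of the inhibitors of p53, Mdm2 had its lowest and Mdm4 its highest level with full-length ZNF384. Mdm2 (chr10:117125944-117147814, minus strand) had 35.3 and 36.0 CPM in ZNF384 libraries, 48.6 and 48.8 CPM in TAF15-ZNF384 libraries, 45.1 and 49.8 CPM in TCF3-ZNF384 libraries, and 40.0 and 43.8 CPM in empty vector libraries. The ZNF384 libraries were the 2 lowest and the 4 fusion libraries the 4 highest, so no group overlapped the empty vector. Mdm2 rose in TAF15-ZNF384 cells relative to ZNF384 cells by 0.45 ± 0.10 log2 (adjusted p = 0.00452) and in TCF3-ZNF384 cells by 0.42 ± 0.10 log2 (adjusted p = 0.00411). The second of these was lost without TCF3-ZNF384 replicate 2 (0.35, adjusted p = 0.0657). Against the empty vector the log2 fold changes of −0.23 in ZNF384 cells (95% interval −0.45 to −0.02), 0.22 in TAF15-ZNF384 cells (−0.00 to 0.44) and 0.18 in TCF3-ZNF384 cells (−0.04 to 0.40) did not pass (adjusted p = 0.112, 0.196 and 0.185). Scaling by total counts brought the last to 0.32 and past the threshold. Mdm4 (chr1:134886422-134921943, minus strand) had 385 and 375 CPM in ZNF384 libraries, 339 and 334 CPM in TAF15-ZNF384 libraries, 334 and 337 CPM in TCF3-ZNF384 libraries, and 339 and 319 CPM in empty vector libraries. Its 2 highest libraries were those with ZNF384, and the other 3 groups overlapped. Its log2 fold change of 0.21 ± 0.09 in ZNF384 cells over the empty vector did not pass (adjusted p = 0.119), nor did those of TAF15-ZNF384 cells (−0.17 ± 0.09, adjusted p = 0.148) and TCF3-ZNF384 cells (−0.18 ± 0.09, adjusted p = 0.119) over ZNF384 cells.

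Cdkn1a and Ccng1 both fell with full-length ZNF384. Cdkn1a (chr17:29227924-29237667, plus strand) encodes p21, the cyclin-dependent kinase inhibitor through which p53 stops the cell cycle. It stood at 18.7 and 22.9 CPM in ZNF384 libraries, 49.6 and 45.8 CPM in TAF15-ZNF384 libraries, 29.9 and 32.4 CPM in TCF3-ZNF384 libraries, and 34.1 and 38.1 CPM in empty vector libraries. The 4 groups did not overlap, and their order was TAF15-ZNF384, empty vector, TCF3-ZNF384, ZNF384 from the highest. Relative to the empty vector, Cdkn1a fell by 0.80 log2 in ZNF384 cells (SE 0.12, adjusted p = 0.000381), to 0.574 times its level. It rose by 0.40 ± 0.12 log2 in TAF15-ZNF384 cells (adjusted p = 0.0461), and differed by −0.21 in TCF3-ZNF384 cells (95% interval −0.47 to 0.05, adjusted p = 0.204). Relative to ZNF384 cells it was 2.30-fold higher with TAF15-ZNF384 (log2 1.20 ± 0.12, adjusted p = 1.06e-05) and 1.51-fold higher with TCF3-ZNF384 (0.59 ± 0.12, adjusted p = 0.00134). Between the fusions it was lower with TCF3-ZNF384, with a log2 fold change over TAF15-ZNF384 of −0.61 ± 0.12 (adjusted p = 0.00594). The drop with ZNF384 and both differences from ZNF384 cells kept their calls in all 16 alternatives. The rise with TAF15-ZNF384 did not: without TAF15-ZNF384 replicate 1 it was 0.33 and without replicate 2 it was 0.45, without empty vector replicate 1 it was 0.32 and without replicate 2 it was 0.48, and without either TCF3-ZNF384 replicate it was 0.40, all short of the threshold, as was the value of 0.41 with DESeq2 (adjusted p = 0.0763). The difference between the fusions was lost without TAF15-ZNF384 replicate 1 (−0.55, adjusted p = 0.0715) and without TCF3-ZNF384 replicate 1 (−0.55, adjusted p = 0.0746).

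Ccng1 (chr11:40562054-40568813, minus strand) encodes cyclin G1, a p53 target that works with the phosphatase PP2A on Mdm2. It had 389 and 317 CPM in ZNF384 libraries, 616 and 571 CPM in TAF15-ZNF384 libraries, 476 and 499 CPM in TCF3-ZNF384 libraries, and 524 and 518 CPM in empty vector libraries. Again the groups were separate and in the order seen for Cdkn1a. Ccng1 fell by 0.56 log2 in ZNF384 cells relative to the empty vector (SE 0.11, adjusted p = 0.00222), to 0.677 times its level. Relative to ZNF384 cells it was 1.68-fold higher with TAF15-ZNF384 (log2 0.75 ± 0.11, adjusted p = 0.000170) and 1.38-fold higher with TCF3-ZNF384 (0.47 ± 0.11, adjusted p = 0.00282). These 3 calls held in all 16 alternatives. The fusions did not pass against the empty vector, at 0.19 ± 0.11 for TAF15-ZNF384 (adjusted p = 0.282) and −0.10 ± 0.11 for TCF3-ZNF384 (adjusted p = 0.522, turning to 0.04 under total-count scaling), nor against each other (−0.28, 95% interval −0.51 to −0.05, adjusted p = 0.114). The first passed at 0.30 under total-count scaling and at 0.19 without either ZNF384 replicate, and the last passed at −0.29 without either ZNF384 replicate. A promoter of Cdkn1a and the promoter of Ccng1 hold a match to the p53 element, printed above. A link of these matches to the falls was not tested.

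**Figure D3:**
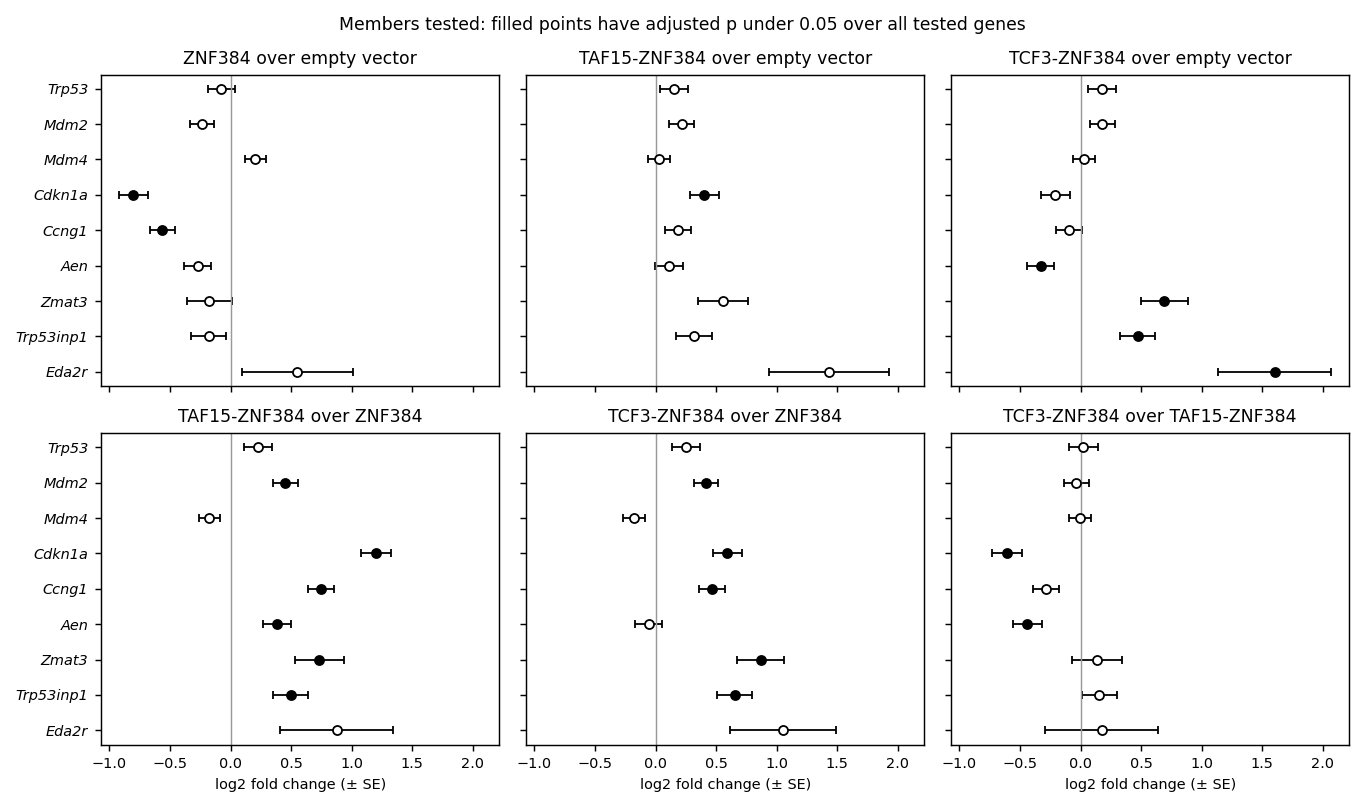
Log2 fold change (x axis) of the 9 tested members (y axis) in the 6 comparisons, with bars for ± SE. Filled points have an adjusted p under 0.05 over all tested genes. In the 2 panels against ZNF384 every filled point lies right of 0, and Cdkn1a reaches 1.20 with TAF15-ZNF384.

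Among the cell death genes, Trp53inp1 and Eda2r stood higher and Aen lower with TCF3-ZNF384 than with the empty vector. These traits were not particular to TCF3-ZNF384. Over TAF15-ZNF384 cells, Trp53inp1 (log2 0.16) and Eda2r (0.17) did not pass, and over ZNF384 cells Aen (−0.06) did not pass. Aen (chr7:86040740-86056095, plus strand) encodes an exonuclease that enhances apoptosis. It had 33.2 and 27.5 CPM in ZNF384 libraries, 39.9 and 39.7 CPM in TAF15-ZNF384 libraries, 28.3 and 30.3 CPM in TCF3-ZNF384 libraries, and 36.9 and 36.8 CPM in empty vector libraries. The TCF3-ZNF384 libraries overlapped those of ZNF384 and lay below those of TAF15-ZNF384 and the empty vector. Aen fell in TCF3-ZNF384 cells, by 0.33 log2 relative to the empty vector (SE 0.11, adjusted p = 0.0377) and by 0.44 log2 relative to TAF15-ZNF384 cells (SE 0.12, adjusted p = 0.0295), and it rose in TAF15-ZNF384 relative to ZNF384 cells by 0.38 ± 0.11 log2 (adjusted p = 0.0191). The falls were lost without any 1 of the 6 libraries of TAF15-ZNF384, TCF3-ZNF384 and the empty vector, at −0.39 to −0.28 and −0.50 to −0.39. The fall relative to the empty vector was also lost under total-count scaling (−0.19, adjusted p = 0.188) and with DESeq2 (−0.34, adjusted p = 0.0839). The rise was lost without ZNF384 replicate 2 (0.28) and without TAF15-ZNF384 replicate 1 (0.37) or 2 (0.38). Without ZNF384 replicate 1, Aen passed in ZNF384 cells against the empty vector, at −0.44 instead of −0.27.

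Trp53inp1 (chr4:11083578-11101526, plus strand) encodes a stress protein that promotes p53 activity. It had 135 and 202 CPM in ZNF384 libraries, 239 and 236 CPM in TAF15-ZNF384 libraries, 263 and 266 CPM in TCF3-ZNF384 libraries, and 185 and 197 CPM in empty vector libraries. All 4 fusion libraries lay above the other 4, and the ZNF384 libraries lay on both sides of the empty vector. It rose with TCF3-ZNF384 by 0.65 log2 relative to ZNF384 cells (SE 0.15, adjusted p = 0.00281) and by 0.47 log2 relative to the empty vector (SE 0.15, adjusted p = 0.0238), and with TAF15-ZNF384 by 0.50 ± 0.15 log2 relative to ZNF384 cells (adjusted p = 0.0199). The first held in all 16 alternatives, at 0.41 without ZNF384 replicate 1 and 0.99 without replicate 2. The second was lost without TCF3-ZNF384 replicate 1 (0.49) or 2 (0.46) and without empty vector replicate 1 (0.42) or 2 (0.52), and the third without TAF15-ZNF384 replicate 1 (0.48) or 2 (0.50). Both were also lost under total-count scaling, at 0.61 (adjusted p = 0.0514) and 0.62 (adjusted p = 0.0525). The third kept its call at 0.25 without ZNF384 replicate 1 and at 0.83 without replicate 2. Without ZNF384 replicate 2, which had 202 CPM, the gene passed in ZNF384 cells against the empty vector at −0.51 (−0.18 with it). Without either ZNF384 replicate it also passed in TAF15-ZNF384 cells against the empty vector, at 0.32 as with them.

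Eda2r (chrX:94529179-94572555, minus strand), a TNF receptor family member that binds ectodysplasin A2, was close to the detection limit. It had 1.58 and 1.05 CPM in ZNF384 libraries, 3.70 and 1.27 CPM in TAF15-ZNF384 libraries, 3.50 and 2.21 CPM in TCF3-ZNF384 libraries, and 0.743 and 1.09 CPM in empty vector libraries. Both libraries of each fusion lay above the empty vector, and the 2 TAF15-ZNF384 libraries were far apart. In TCF3-ZNF384 cells it was 3.04-fold higher than with the empty vector (log2 1.60 ± 0.47, adjusted p = 0.0170), a call lost without TCF3-ZNF384 replicate 1 (1.27) and without empty vector replicate 1 (1.35). With TAF15-ZNF384 the log2 fold change over the empty vector was 1.43 ± 0.49 (adjusted p = 0.0788), and it passed without either ZNF384 replicate (1.43). It was 0.46 without TAF15-ZNF384 replicate 1 and 2.00, past the threshold, without replicate 2, so its size rested on which of these 2 libraries was kept. Against ZNF384 cells TAF15-ZNF384 gave 0.88 (adjusted p = 0.163), which passed at 1.44 without TAF15-ZNF384 replicate 2 and was −0.09 without replicate 1. TCF3-ZNF384 gave 1.05 (adjusted p = 0.0651), which passed at 1.04 without either TAF15-ZNF384 replicate. Phlda3 (chr1:137662696-137665713, plus strand), a pleckstrin homology protein that blocks Akt, had 9 and 10 counts in ZNF384 libraries, 4 and 4 in TAF15-ZNF384 libraries, 6 and 4 in TCF3-ZNF384 libraries, and 8 and 11 in empty vector libraries. That is 0.206 to 0.552 CPM with every group overlapping every other, and a difference in Phlda3 was not detectable at this depth.

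Zmat3 (chr3:32233718-32264600, minus strand) encodes an RNA-binding zinc finger protein, and its intron holds the only full match among the sequences printed above. It had 6.92 and 5.90 CPM in ZNF384 libraries, 12.7 and 8.78 CPM in TAF15-ZNF384 libraries, 12.2 and 11.4 CPM in TCF3-ZNF384 libraries, and 6.30 and 8.31 CPM in empty vector libraries. All 4 fusion libraries lay above the other 4. It rose with TCF3-ZNF384 by 0.87 ± 0.19 log2 relative to ZNF384 cells (adjusted p = 0.00215), which held in all 16 alternatives. It rose by 0.69 ± 0.19 relative to the empty vector (adjusted p = 0.0130), which was lost without TCF3-ZNF384 replicate 1 (0.65) or 2 (0.74) and without empty vector replicate 1 (0.50). With TAF15-ZNF384 it rose by 0.73 ± 0.20 relative to ZNF384 cells (adjusted p = 0.0132), lost without TAF15-ZNF384 replicate 1 (0.43). Against the empty vector TAF15-ZNF384 gave 0.56 ± 0.20 (adjusted p = 0.0949), which passed at the same 0.56 without either ZNF384 replicate. It was 0.26 without TAF15-ZNF384 replicate 1 and 0.36 without empty vector replicate 1.

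The wider pathway was read from 7 lists set by function. In the 5 lists of other p53 targets, 48 of 55 genes were tested. With ZNF384 against the empty vector 6 of the 48 rose and 15 fell (43.8%, median −0.12), with TAF15-ZNF384 4 rose and 4 fell (16.7%, median 0.14), and with TCF3-ZNF384 11 rose and 10 fell (43.8%, median −0.19). Against ZNF384 cells, 18 rose and 8 fell with TAF15-ZNF384 (54.2%, median 0.29) and 17 rose and 10 fell with TCF3-ZNF384 (56.2%, median 0.18). With TCF3-ZNF384 against TAF15-ZNF384 1 rose and 7 fell (16.7%, median −0.14). The shares of all genes for the same comparisons were lower in each case. Against the empty vector they were 20.6% for ZNF384, 11.0% for TAF15-ZNF384 and 33.3% for TCF3-ZNF384. Against ZNF384 cells they were 33.3% for TAF15-ZNF384 and 45.6% for TCF3-ZNF384, and between the fusions 10.1%.

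In ZNF384 cells 4 of the 10 tested arrest targets and 3 of the 10 tested apoptosis targets fell relative to the empty vector, and 1, the apoptosis gene Bid (0.69 ± 0.17, adjusted p = 0.0123), rose. Of each of the 2 lists 40.0% passed, where 20.6% of all genes tested passed and 9.87% fell. The call of Bid was lost without ZNF384 replicate 1 (0.61), without empty vector replicate 1 (0.58) and with DESeq2 (0.68). The 4 arrest calls became 2 without empty vector replicate 2, and the 4 apoptosis calls became 2 without replicate 1 of ZNF384 or of the empty vector. Bbc3, which encodes the cell death protein PUMA, stood at 13.1 and 16.3 CPM with ZNF384, against 43.8 and 44.3 CPM with the empty vector (log2 −1.60 ± 0.13, adjusted p = 3.16e-06). Plk3, a stress-response kinase, stood at 2.82 and 2.93 CPM with ZNF384, against 14.2 and 22.7 CPM with the empty vector (−2.69 ± 0.25, adjusted p = 3.84e-05). Gadd45a, a DNA damage response gene, stood at 1.19 and 2.18 CPM with ZNF384, against 6.88 and 12.9 CPM with the empty vector (−2.63 ± 0.38, adjusted p = 0.00201). Each of the 3 had its ZNF384 libraries below all 6 others. Sesn2, a stress-induced inhibitor of mTORC1 signalling (−1.27 ± 0.18, adjusted p = 0.00101), Ephx1, an epoxide hydrolase (−0.81 ± 0.13, adjusted p = 0.000745), and Rrm2b, the p53-inducible subunit of ribonucleotide reductase (−0.57 ± 0.09, adjusted p = 0.000966), also fell. Tnfaip8 (0.66 ± 0.11, adjusted p = 0.00104) and Trp53i11 (0.67 ± 0.11, adjusted p = 0.00105) rose. Among the regulators, Rfwd2, the ubiquitin ligase COP1 that acts on p53, rose by 0.51 ± 0.10 (adjusted p = 0.00229), and the deubiquitinase gene Usp10 by 0.50 ± 0.10 (adjusted p = 0.00434). Of the 27 calls singled out by the naming rule in this comparison these 10 held in all 16 alternatives. Rrm2b also fell with TAF15-ZNF384 (−0.51) and TCF3-ZNF384 (−0.35) relative to the empty vector, calls lost in 1 and 5 of the alternatives.

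The other named cell death and arrest genes were less certain with ZNF384. Pmaip1, which encodes NOXA, fell by 1.14 log2 (SE 0.18, adjusted p = 0.00146), a call lost without ZNF384 replicate 1 (−1.04). Btg2, an antiproliferative gene, fell by 1.27 log2 (SE 0.26, adjusted p = 0.0155), lost without empty vector replicate 2 (−1.20) and under total-count scaling (−1.28). Bax fell by 0.32 log2 (SE 0.10, adjusted p = 0.0412), and this call was lost without ZNF384 replicate 2 (−0.26) and without empty vector replicate 1 (−0.34) or 2 (−0.30). It was also lost without either replicate of TAF15-ZNF384 (−0.32) or TCF3-ZNF384 (−0.34), with DESeq2 (−0.33) and with only the 2 groups in the fit (−0.36). Fas, the death receptor gene, had 1.61 and 1.27 CPM with ZNF384 and 1.92 and 2.02 CPM with the empty vector (−0.43, 95% interval −1.06 to 0.19). Sesn1 (0.06, interval −0.22 to 0.35), Ppm1d, the p53 phosphatase gene (−0.21, interval −0.42 to −0.01), and Cdkn2a (0.20, interval −0.07 to 0.47) did not pass either.

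In TCF3-ZNF384 cells Cdkn2a rose relative to the empty vector, and Lif and Fdxr fell. Cdkn2a had 94.6 and 100.04 CPM with TCF3-ZNF384, against 59.7 and 60.4 CPM with the empty vector (log2 0.70 ± 0.13, adjusted p = 0.000855). The gene count joins both products of Cdkn2a and cannot show which exons the reads came from, so it neither checks nor contradicts the deletion of Arf. Lif, which encodes the cytokine leukaemia inhibitory factor, had 1.56 and 1.56 CPM with TCF3-ZNF384, against 7.82 and 7.46 CPM with the empty vector (−2.29 ± 0.23, adjusted p = 5.22e-06). Fdxr, the mitochondrial ferredoxin reductase, had 26.8 and 29.5 CPM with TCF3-ZNF384, against 51.5 and 51.5 CPM with the empty vector (−0.87 ± 0.10, adjusted p = 2.05e-05). In each of the 3 the groups were far apart relative to the libraries within them. Plk3 (−1.15 ± 0.24, adjusted p = 0.00364) and Gtse1 (−0.54 ± 0.12, adjusted p = 0.00288) also fell, while Apaf1, the core of the apoptosome (0.68 ± 0.15, adjusted p = 0.00295), Xpc, a nucleotide excision repair gene (0.56 ± 0.10, adjusted p = 0.000638), Prkab1, a subunit gene of AMP kinase (0.78 ± 0.15, adjusted p = 0.00172), and Tnfaip8 (0.68 ± 0.11, adjusted p = 0.000438) rose. Usp10 (0.69 ± 0.11, adjusted p = 0.000219) and Hipk2, a kinase of p53 (0.58 ± 0.12, adjusted p = 0.00232), rose among the regulators. Rpl5 and Rpl11, ribosomal proteins that bind Mdm2, fell by 1.02 and 1.74 log2 (SE 0.17 and 0.28, adjusted p = 0.000765 and 0.00360), but both have many near-identical copies in the genome and how the counts treated such reads is not known. Of 29 calls singled out in this comparison, 15 held in all 16 alternatives, the 13 just given, Rpl5 and Rpl11 included, with Mcm5 and Birc5 of the cell cycle list below. Fdxr, Lif, Rpl5 and Rpl11 also fell with TAF15-ZNF384 relative to the empty vector (log2 −0.60, −0.89, −0.94 and −1.45). Hipk2 rose there too (0.45). These calls were lost in 1, 5, 1, 3 and 7 of the 16 alternatives, in that order. Gtse1 also fell and Xpc rose with ZNF384 over the empty vector (−0.51 and 0.35), calls lost in 1 and 3 of the alternatives.

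With TCF3-ZNF384, Btg2 (1.10 ± 0.26, adjusted p = 0.0167), Pmaip1 (0.64 ± 0.18, adjusted p = 0.0183) and Sesn1 (0.50 ± 0.14, adjusted p = 0.0114) also rose relative to the empty vector. Btg2 lost its call without TCF3-ZNF384 replicate 1 (1.19) or 2 (1.00) or empty vector replicate 1 (1.03) or 2 (1.16). Pmaip1 lost it without TCF3-ZNF384 replicate 2 (0.35), empty vector replicate 1 (0.41) or either ZNF384 replicate (0.64), and with only the 2 groups in the fit (0.64), and Sesn1 without TCF3-ZNF384 replicate 2 (0.40) or empty vector replicate 1 (0.38). Fas (0.65, 95% interval 0.02 to 1.28), Bbc3 (−0.24), Ppm1d (−0.19) and Bax (−0.01, turning to 0.13 under total-count scaling) did not pass. In TAF15-ZNF384 cells the same genes did not pass against the empty vector, with Fas at 0.83 (interval 0.17 to 1.48), Btg2 at 0.65 (interval 0.04 to 1.27), Pmaip1 at 0.34, Sesn1 at 0.12, Bax at 0.09, Bbc3 at −0.08 and Ppm1d at −0.09, of which the last pair turned to 0.03 and 0.02 under total-count scaling. Btg2 did pass there in 4 of 16 alternatives, with no filter on low counts (0.63), with only the 2 groups in the fit (0.66) and without either ZNF384 replicate (0.66). Cdkn2a was at 0.07 (interval −0.21 to 0.35). Each of the 11 calls singled out with TAF15-ZNF384 was lost in at least 1 of the 16 alternatives. The relatives of p53 were nearly silent: Trp63 had 1 count in 1 empty vector library and 0 elsewhere, where 0 allows up to 3 counts, and Trp73 had at most 5 counts in any library.

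**Figure D4:**
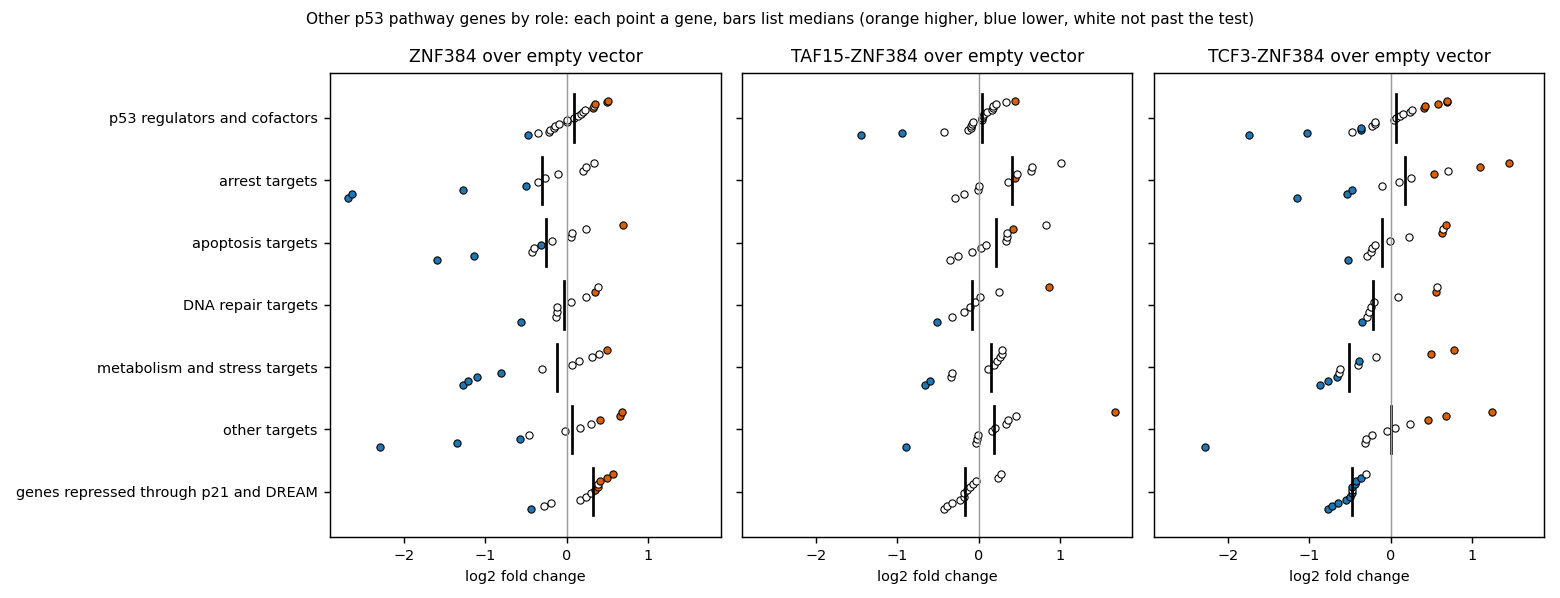
Log2 fold change (x axis) of each tested gene of the 7 pathway lists (y axis) against the empty vector, 1 panel per construct; orange points rose, blue points fell, white points did not pass, and bars are list medians. In the TCF3-ZNF384 panel all 12 cell cycle genes listed as repressed through p21 and DREAM lie left of 0, with a median of −0.47.

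The cell cycle genes that p53 represses through p21 and the DREAM complex differed between constructs. All 12 were tested. Against the empty vector, 5 rose and 1 fell with ZNF384 (6 of 12, where 20.6% of all genes passed, median 0.32), and 10 fell with TCF3-ZNF384 (83.3%, where 33.3% of all genes passed, median −0.47), among them the replication licensing gene Mcm5 (−0.77 ± 0.12, adjusted p = 0.000317) and the survivin gene Birc5 (−0.48 ± 0.11, adjusted p = 0.00353). With TAF15-ZNF384 0 of 12 passed by edgeR's quasi-likelihood test, where 11.0% of all genes passed, 2 had an unadjusted p under 0.05, DESeq2 also called 0, and the median was −0.16. Against ZNF384 cells 10 fell with TCF3-ZNF384 (83.3%, where 45.6% of all genes passed, median −0.84), and 2 rose and 8 fell with TAF15-ZNF384 (83.3%, where 33.3% of all genes passed, median −0.52). With TCF3-ZNF384 4 fell relative to TAF15-ZNF384 (33.3%, where 10.1% of all genes passed, median −0.33). The count for ZNF384 over the empty vector dropped to 3 without ZNF384 replicate 1 or without either TCF3-ZNF384 replicate, to 2 without empty vector replicate 1 and to 0 without empty vector replicate 2. The count for TCF3-ZNF384 over the empty vector dropped to 3 without TCF3-ZNF384 replicate 2 or empty vector replicate 1. The 10 for TCF3-ZNF384 over ZNF384 stayed at 10 without each library in turn, and the 10 for TAF15-ZNF384 over ZNF384 dropped to 5 without TAF15-ZNF384 replicate 1. The 4 between the fusions became 9 without either ZNF384 replicate, 2 without TAF15-ZNF384 replicate 1 or TCF3-ZNF384 replicate 2, 1 without TAF15-ZNF384 replicate 2, and 0 without TCF3-ZNF384 replicate 1. The 0 of TAF15-ZNF384 over the empty vector became 3 without either ZNF384 replicate. With only the 2 groups compared in the fit, the counts were 2 for ZNF384 and 3 for TAF15-ZNF384 over the empty vector, and 9 for TCF3-ZNF384 over TAF15-ZNF384. The 0 of TAF15-ZNF384 over the empty vector was 2 with no filter on low counts and 1 with a replicate block.

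Over the 8 libraries, the genes whose log2 CPM ran most like that of Mdm2 were Tuba1c (Pearson r 0.987), Kmt2b (0.984) and Dgat1 (0.983). For Cdkn1a they were Gm13448 (0.985), Shf (0.984) and Arf2 (0.980), where Arf2 is an ADP-ribosylation factor gene and not the Arf of Cdkn2a. For Ccng1 they were Gm29642 (0.980), Fam212b (0.978) and Gm8696 (0.977), and for Trp53 they were Cdc42bpb (0.989), Bmp7 (0.986) and Dner (0.985). These are the highest of all tested genes over 8 libraries that share 4 groups, so they are given as descriptions.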

How the data were processed

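RNA was sequenced from 8 libraries, 2 in each of 4 groups taken from the sample titles. The deposited values are raw counts per gene on mm9, made by the authors with HTSeq 0.6.1p1, per the submitters' processing notes. The aligner, the gene annotation and the strand setting are not given in the sources used here. Of the value columns, 0 were left out. The counts were fitted with edgeR 4.0.16 (R 4.3.3) by its quasi-likelihood test after trimmed-mean scaling and edgeR's filter on low counts (here 0.524 CPM), with all 4 groups in 1 model and 4 residual degrees of freedom. Then p-values were adjusted by Benjamini-Hochberg over the 12970 genes tested in each of 6 comparisons, with a threshold of 0.05. The members passed the filter in all 8 libraries, except Phlda3. "Rose" and "fell" mean past that threshold, log2 fold changes carry SEs, and intervals are 95%. Floors are 3 counts and cover counting error only. The code of the test was checked on simulated counts in which all genes shared a dispersion and few genes changed. That setting is simpler than these data, so the check does not give the error rate of the calls here. Alternatives were other scalings, filters, DESeq2 1.42.0, a fit of 2 groups only, a replicate block and leaving out each library. Leaving 1 library in a group assumes that it varies like the others. Members and pathway lists were chosen with earlier results of these data known. The genes named were all members and 10 pathway genes always given (Bax, Bbc3, Pmaip1, Fas, Btg2, Sesn1, Ppm1d, Cdkn2a, Trp63 and Trp73). Named too were up to 3 per list and direction with the smallest adjusted p in each comparison with the empty vector. Of these last, the calls that held in all 16 alternatives are printed. Calls that did not hold are printed for Bid and, in a further comparison, for Fdxr, Lif, Rpl5, Rpl11, Hipk2, Rrm2b, Gtse1 and Xpc. For 4 members the 3 most correlated genes were named. Exon lengths and positions are from GENCODE vM1.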

Additional observations from a re-analysis of the deposited data

How the results depend on the processing

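Of 864 alternative values of member fold changes, 774 kept their direction and their side of the threshold, 41 lost a call, 30 gained one and 19 changed sign. The causes were not tested. Under total-count scaling the sign changed for Bbc3 (0.032) and Ppm1d (0.021) in TAF15-ZNF384 over the empty vector, Ccng1 (0.043) and Bax (0.13) in TCF3-ZNF384 over the empty vector, Aen in TCF3-ZNF384 over ZNF384 (0.12), and Mdm4 in TCF3-ZNF384 over TAF15-ZNF384 (0.025, and 0.0068 with no filter). That scaling also raised the share of calls that were higher, to 67.1%, 67.6%, 65.0% and 65.6% for TAF15-ZNF384 and TCF3-ZNF384 over the empty vector and then over ZNF384, instead of 45.5%, 48.8%, 46.4% and 48.7%. For TAF15-ZNF384 over the empty vector, the members called were 0 with DESeq2, 2 with total-count scaling, and 3 with no filter or with only the 2 groups fitted. All genes called there were 2746 with only the 2 groups, instead of 1430, and 2548 instead of 1308 for TCF3-ZNF384 over TAF15-ZNF384.

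Without each library in turn, genes called ran from 1064 to 3814 for ZNF384, 404 to 2783 for TAF15-ZNF384 and 2501 to 5372 for TCF3-ZNF384 over the empty vector, 2158 to 5333 for TAF15-ZNF384 and 3866 to 6558 for TCF3-ZNF384 over ZNF384, and 371 to 2361 for TCF3-ZNF384 over TAF15-ZNF384. Members called ran from 0 to 5 for TAF15-ZNF384 and 0 to 4 for TCF3-ZNF384 over the empty vector, 3 to 6 for TAF15-ZNF384 over ZNF384, and 0 to 3 for TCF3-ZNF384 over TAF15-ZNF384. Signs turned for ZNF384 over the empty vector in Trp53 (−0.20 to 0.073), Zmat3 (−0.36 to 0.042), Trp53inp1 (−0.51 to 0.067), Sesn1 (−0.12 to 0.21) and Cdkn2a (−0.045 to 0.38). They turned for TAF15-ZNF384 over the empty vector in Mdm4 (−0.017 to 0.069), Bax (−0.017 to 0.17) and Cdkn2a (−0.024 to 0.14), and for TCF3-ZNF384 over it in Mdm4 (−0.020 to 0.066) and Bax (−0.060 to 0.031). They also turned for Eda2r in TAF15-ZNF384 over ZNF384 (−0.095 to 1.44), for Aen in TCF3-ZNF384 over ZNF384 (−0.16 to 0.11), and in TCF3-ZNF384 over TAF15-ZNF384 for Trp53 (−0.014 to 0.066), Mdm2 (−0.12 to 0.035), Mdm4 (−0.017 to 0.012), Zmat3 (−0.11 to 0.43) and Eda2r (−0.40 to 1.14). None of these values passed with all libraries in.

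Libraries with the same replicate number deviated together only weakly (r from 0.014 to 0.22 over 6 pairs of groups), so the numbers were not taken as pairs. With a replicate block, 2, 1 and 4 members were called for ZNF384, TAF15-ZNF384 and TCF3-ZNF384 over the empty vector, 6 and 6 for TAF15-ZNF384 and TCF3-ZNF384 over ZNF384, and 2 between the fusions. The sixth for TCF3-ZNF384 over ZNF384 was Eda2r. Counts of all genes called were higher under the block in each of the 6 comparisons. Over the empty vector they were 2999 instead of 2675 for ZNF384, 1825 instead of 1430 for TAF15-ZNF384 and 4655 instead of 4317 for TCF3-ZNF384. Over ZNF384 they were 4653 instead of 4320 for TAF15-ZNF384 and 6111 instead of 5916 for TCF3-ZNF384. Between the fusions the count was 1523 instead of 1308. Depth limits Phlda3 and Eda2r most, and 2 libraries per group leave calls of small changes to single libraries.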
